A study of Mus musculus with 9 samples.

Results

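The 9 genes described here encode EF-hand calcium-binding proteins: parvalbumin (Pvalb), calbindin (Calb1), calretinin (Calb2), hippocalcin (Hpca), its relatives Hpcal1, Hpcal4 and neurocalcin delta (Ncald), and the calmodulin genes Calm2 and Calm3. They were taken as a named list from the 37620 gene identifiers in the data, each matched a single identifier, and all 9 passed the filter on low values that left 15069 genes to test. The EF-hand is a helix-loop-helix fold whose short loop holds a calcium ion. Buffers such as parvalbumin, calbindin and calretinin bind calcium that enters during spikes and shape how fast it decays, whereas sensors such as calmodulin and hippocalcin change shape on binding and act on other proteins. Parvalbumin gives PV INs, the fast-spiking inhibitory neurons of hippocampus, their name. Calbindin is abundant in dentate granule cells, calretinin in a further set of interneurons and hippocalcin in pyramidal neurons.

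The mice were PV-Cre; Rpl22HA/HA animals, 2 months old, of both sexes, in which Cre driven from the Pvalb gene puts a hemagglutinin (HA) tag on the ribosomal protein L22 of PV INs. Both groups carried these alleles and both received a lentivirus in the dentate gyrus (DG), with a non-target shRNA in the 5 shNT samples and an shRNA against Ablim3, a cytoskeletal adaptor of mossy fibers, in the 4 shRNA samples. CA3/CA2 tissue was taken 2 weeks after injection and pooled from 6 mice per sample, ribosomes were pulled down with antibody to HA, and the RNA bound to them was sequenced. The question was which ribosome-associated RNAs of PV INs differ once their mossy fiber input is increased in this way. The replicates are pools of animals, so p-values measure the spread between pools. Because the tag depends on Cre from the Pvalb gene itself, Pvalb is both a readout and the gene that defines the tagged cells.

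Gene counts per sample ran from 18281719 to 34578837. Reads outside annotated exons made up 9.76% to 18.6% of uniquely placed reads in shNT and 12.4% to 27.2% in shRNA, with shNT 2 and shRNA 4 highest in their groups. Levels are given as CPM (gene counts scaled to a common library size with TMM normalization), with the mean ± SD. Ablim3, the targeted gene, measured 16.9 ± 5.16 CPM in shNT (12.1 to 22.6, n = 5) and 18.5 ± 3.42 CPM in shRNA (13.7 to 21.7, n = 4), and since the shRNA was delivered to the DG while the RNA came from CA3/CA2, this value does not check the labels. The names of the samples fall into a set of 6 (shNT 1 to 3 and shRNA 1 to 3) and a set of 3 (shNT 4, shNT 5 and shRNA 4). Values within the set of 6 are given beside each member's comparison, and the set of 3 holds only 1 shRNA sample, so it allows no comparison of its own. Marker genes of other cells are given with the members they touch.

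The coding stretches below show how closely the calmodulin and hippocalcin genes resemble each other within an EF-hand loop. Each is 36 bases that code for an EF-hand loop of 12 residues, read 5′ to 3′ on the coding strand from the mm9 genome with GENCODE gene models, with capitals for the bases that differ from the first sequence of its set.
Calm2: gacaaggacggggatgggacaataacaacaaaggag
Calm3: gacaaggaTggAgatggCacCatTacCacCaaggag
Hpca: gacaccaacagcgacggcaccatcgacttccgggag
Hpcal1: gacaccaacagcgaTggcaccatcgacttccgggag
Hpcal4: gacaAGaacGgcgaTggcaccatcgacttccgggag
Ncald: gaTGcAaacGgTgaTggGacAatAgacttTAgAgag
Pvalb: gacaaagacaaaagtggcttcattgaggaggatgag

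The calmodulin stretches lie at chr17:87835213-87835248 (minus strand, Calm2) and chr7:17503016-17503051 (minus strand, Calm3), each in the third exon of its transcript. They differ at 7 bases and code for the same residues in this loop. Across the whole coding sequence, Calm2 and Calm3 share 82.7% of bases and 100% of the 149 residues, so these genes encode the same protein from different RNAs. In the hippocalcin family the stretches are at chr4:128795734-128795769 (minus strand, Hpca, the fourth exon), chr12:17793193-17793228 (plus strand, Hpcal1, the second exon), chr4:122866322-122866357 (plus strand, Hpcal4, the fourth exon) and chr15:37326938-37326973 (minus strand, Ncald, the fifth exon). Hpcal1 differs from Hpca at 1 base, Hpcal4 at 4 bases and Ncald at 12 bases, and only Hpcal1 keeps the residues of this loop. Over the whole protein, Hpca shares 93.8% of residues with Hpcal1, 88.1% with Ncald and 67.9% with Hpcal4, so Hpcal4 is the most distant of the family. The Pvalb stretch is at chr15:78032956-78032991 (minus strand), in the third exon. A search of the translated proteins for the loop pattern found 2 loops in Pvalb, 4 in Calb1 and 5 in Calb2.

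Only uniquely aligned reads of 50 bases were counted, so the share of exon windows of that length that occur once in the genome shows how well each gene can be counted. That share was 100% for Pvalb, Calb1, Calb2 and Hpcal4, and 99.4%, 99.6% and 98.5% for Hpca, Ncald and Calm3. It was 92.9% for Hpcal1, where 97 windows occur again elsewhere. Calm2 stood lowest at 71.4%, with 355 of its 1240 windows found more than once, so its counts leave out part of its RNA. Alignments at more than 1 place made up 11.1% to 14.4% of alignments in shNT and 8.24% to 10.8% in shRNA, and the part of this difference in the Calm2 comparison was not tested. Strand was not used in counting, and the exons of Hpca overlap Tmem54 on the other strand over 1.95% of their length, while those of Ncald overlap Gm15941 over 1.73%.

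Per length of exon, Calm2 and Pvalb were the most abundant members and the calbindins the least. Levels in CPM per kb of exon averaged 1967 ± 414 for Calm2, 959 ± 276 for Pvalb and 643 ± 82.9 for Calm3 in the shNT samples (n = 5). In the same samples Hpca averaged 249 ± 42.2 CPM per kb, Ncald 124 ± 15.2 and Hpcal4 32.01 ± 7.56. Hpcal1 averaged 13.7 ± 1.93 CPM per kb, Calb1 10.5 ± 2.76 and Calb2 9.78 ± 3.31. Among 15047 genes ranked by mean CPM per kb over all 9 samples, Calm2 was number 6, Pvalb 31, Calm3 51, Hpca 168 and Ncald 512. Hpcal4 was number 1641, and Hpcal1, Calb2 and Calb1 were numbers 4392, 4734 and 4797. Calretinin and calbindin RNA were present at low levels beside parvalbumin RNA in the pulldown, with Calb2 making up 0.628% to 1.67% and Calb1 0.726% to 1.60% of the summed level per kb of the 3 buffers in shNT.

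The order of the members from Calm2 through Pvalb, Calm3, Hpca, Ncald, Hpcal4, Hpcal1 and Calb2 to Calb1 was compared between neighbours within each sample. In all 9 samples Calm2 stood above Pvalb (2.39-fold per kb), Calm3 above Hpca (2.26-fold), Hpca above Ncald (2.27-fold), Ncald above Hpcal4 (2.82-fold) and Hpcal4 above Hpcal1 (3.01-fold). Each of these 5 neighbours gave an exact sign-flip permutation p of 0.00391 (two-sided, n = 9), the smallest that 9 samples allow, and 0.00625 after Benjamini-Hochberg adjustment over the 8 pairs. Pvalb and Calm3 were not separated, with a ratio of 1.23, Pvalb higher in 5 of 5 shNT but 2 of 4 shRNA samples, and an adjusted exact permutation p of 0.0573. The neighbours Hpcal1 and Calb2 (1.15-fold, Hpcal1 higher in 5 of 9 samples, adjusted exact permutation p 0.335) and Calb2 and Calb1 (1.01-fold, Calb2 higher in 4 of 9, adjusted exact permutation p 0.953) did not differ beyond their spread. Hpcal1 was above Calb2 in all 5 shNT samples and in 0 of the 4 shRNA samples. With the longest transcript as the length, Calb2 stood above Hpcal1, and 7 of the 8 neighbours kept their order.

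**Figure D1:**
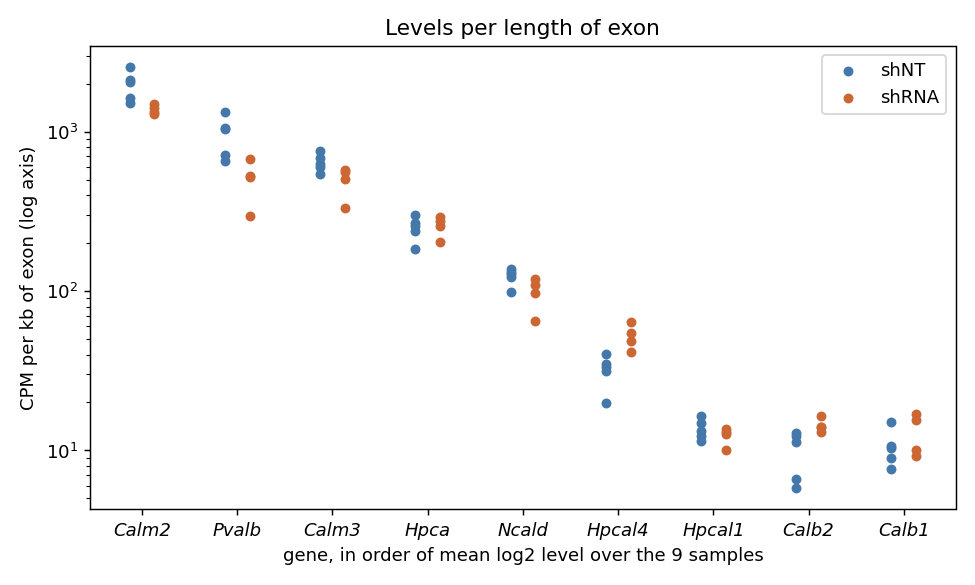
CPM per kb of exon (log axis) of the 9 genes in order of their mean log2 level, with a point for each of the 5 shNT and 4 shRNA samples. Calm2 is highest in each group and Hpcal1, Calb2 and Calb1 overlap near the bottom, between 5.80 and 16.5 for Calb2 for example, while Pvalb and Calm3 overlap.

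Between the groups, none of the 9 members passed the test (edgeR quasi-likelihood test, FDR under 0.05 and at least 1.5-fold), where 1.75% of all genes tested did, 1.74% higher and 0.0133% lower in shRNA. The fitted values were lowest for Pvalb and Calm2 and highest for Hpcal4 and Calb2. These 4 of 9 members had an unadjusted p under 0.05, 2 of them lower in shRNA and 2 higher, as did 34.1% of all genes tested, 13.4% lower and 20.7% higher. The groups did not overlap for 3 of 9 members, Calb2 and Hpcal4 with every shRNA sample above every shNT sample and Calm2 with every shRNA sample below. Among all genes 15.6% had groups that did not overlap, 8.97% with shRNA above and 6.68% with shRNA below, and the difference between the members' share and this one was not tested. Without shNT 2 and shRNA 4, a choice made after seeing the data, 0 of 9 members passed, where 4.77% of all genes did. In that fit 2 of 9 members had an unadjusted p under 0.05, as did 4036 of 14270 genes. The groups then did not overlap for 4 of 9 members (Ncald besides the 3), where 25.7% of all genes had groups apart. The count depended on the tool: edgeR's likelihood ratio test, its exact test and DESeq2 each called 2 members, Pvalb lower and Hpcal4 higher, where they called 14.8%, 14.6% and 15.8% of all genes. The limma voom fit called 3, with Calb2 added, against 19.4% of all genes.

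**Figure D2:**
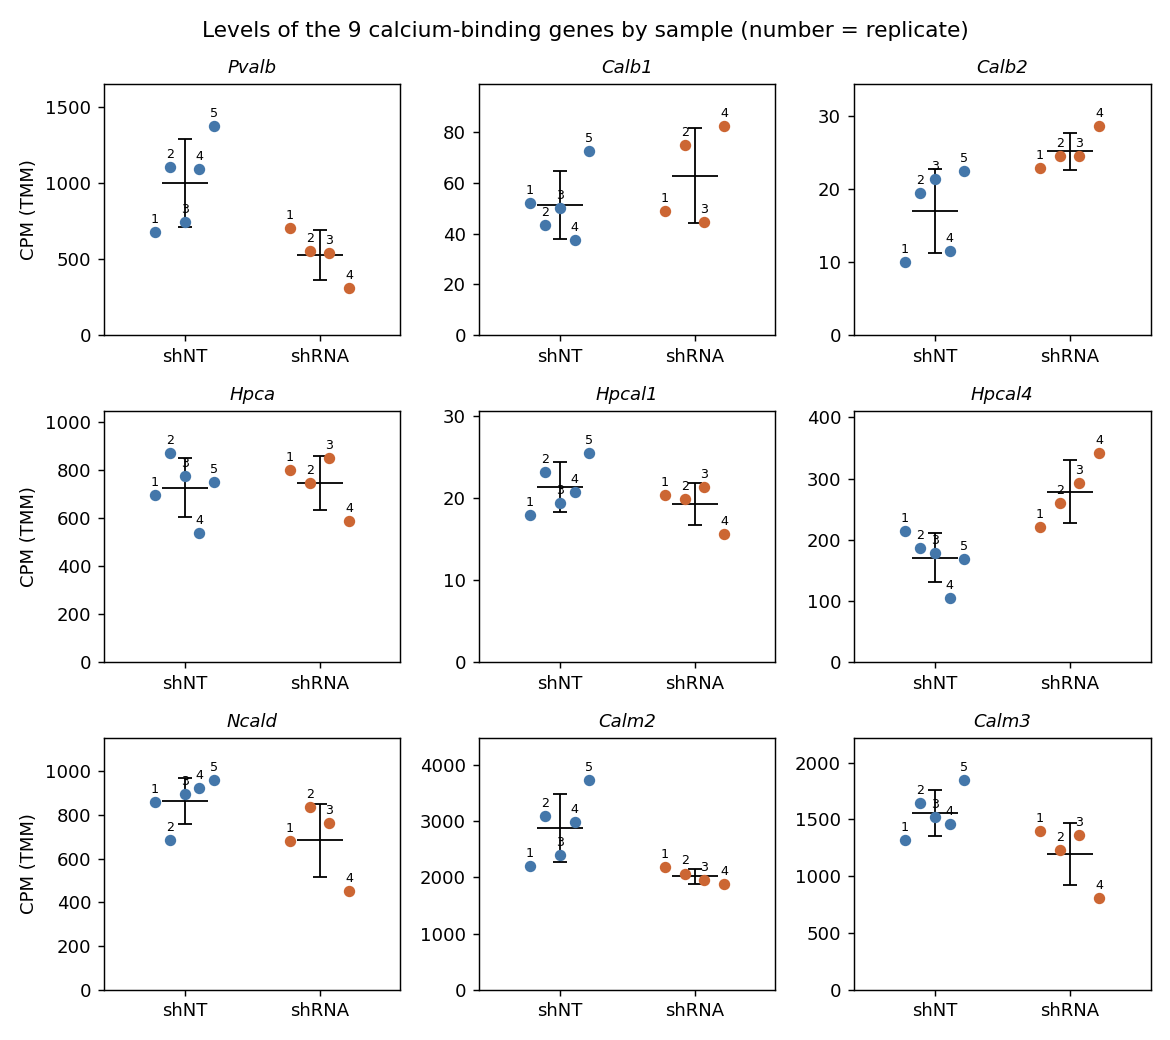
CPM of each gene in every sample (the number is the replicate), with the mean and SD of the 5 shNT and 4 shRNA samples as bars. Pvalb runs from 678 to 1375 in shNT and from 310.0 to 705 in shRNA, with shNT 1 below shRNA 1, and Hpcal4 is apart, at 105 to 214 against 221 to 342.

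Parvalbumin, the calcium buffer that names the tagged cells, stood at 678, 1106, 743, 1089 and 1375 CPM in shNT samples 1 to 5 and at 705, 552, 539 and 310.0 CPM in shRNA samples 1 to 4. All 4 shRNA samples lay below the shNT median, but the groups overlapped, because shNT 1 was below shRNA 1, and the lowest sample was shRNA 4. The shNT mean was 998 ± 287 CPM (SD, n = 5), and the shRNA mean of 526 ± 163 CPM (n = 4) was 0.527 of it. On the log2 scale the fitted difference (shRNA minus shNT) was -0.92 with an SE of 0.28 and a 95% interval from -1.53 to -0.31. The edgeR quasi-likelihood p was 0.00661 and its FDR 0.0678, just over the threshold. An exact permutation test over every division of the 9 samples into 5 and 4 gave p = 0.0317 (two-sided, not adjusted). The same test also gave 0.0317 for Calb2, Calm2 and Calm3, 0.0159 for Hpcal4, and 0.0794 to 0.778 for the other members. Within the set of 6 samples the Pvalb difference was -0.54 (FDR 0.480), and without shNT 2 and shRNA 4 it was -0.70 (FDR 0.136). Leaving out single samples kept it between -1.15 and -0.77, and without shNT 1 the gene passed the test (FDR 0.0473), as did 9.41% of all genes. In bulk RNA, fewer PV INs in the pulldown and less Pvalb RNA per cell cannot be told apart.

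Pvalb, at chr15:78021544-78036830 (minus strand, ENSMUSG00000005716), has a short RNA, with 1.041 kb of exon, and short genes as a whole were lower in shRNA. The median log2 difference over all genes was -0.21 for the shortest of 3 length classes, which holds Pvalb, Calb2, Hpcal1, Calm2 and Calm3. It was 0.093 for the middle class, which holds Hpca, and 0.37 for the longest class, which holds Calb1, Hpcal4 and Ncald. With a correction for exon length, Pvalb differed by -0.67 (FDR 0.112). When the percentage of reads off exons entered the fit as a covariate, it differed by -0.83 (FDR 0.118).

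The other genes of PV INs were compared as a list. Of 20 PV IN markers, 18 had a negative log2 difference and 4 had an unadjusted p under 0.05, all lower, as did 13.4% of all genes. On this list 0 passed the test, where 1.75% of all genes did, 1.74% higher and 0.0133% lower in shRNA. The median of the list was -0.31 against 0.11 for all genes. No marker of the list had a lower value than Pvalb, the nearest being Cox6a2 at -0.91. The summed level of the list ran from 9082 to 14305 CPM in shNT and from 4734 to 11647 CPM in shRNA, and no defining marker was at 0. Gad1, which makes GABA, averaged 3030.3 ± 766 CPM in shNT (n = 5) and 2341 ± 938 CPM in shRNA (n = 4), with 1722 CPM in shNT 2 and 1229 CPM in shRNA 4. Gad2, the second GABA-synthesizing enzyme, averaged 336 and 283 CPM, and Slc32a1, the vesicular GABA transporter, averaged 262 and 191 CPM. None of these passed the test.

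Relative to the mean of the 20 PV IN markers in the same sample, Pvalb stood 1.84, 3.11, 1.84, 2.58 and 2.85 log2 units higher in shNT samples 1 to 5 and 2.31, 1.59, 1.74 and 1.87 higher in shRNA samples 1 to 4. The groups overlapped, with shNT 1 and shNT 3 among the shRNA values. The mean difference was -0.57, with an exact permutation p of 0.135 and 0.198 after adjustment over the 4 relative levels tested. With the correction for exon length it was -0.047, and within the set of 6 samples -0.38. Relative to Gad1 and Gad2, the difference of Pvalb was also -0.57 (exact permutation p 0.198) and with the length correction 0.066, a value of the opposite sign. A difference between Pvalb and the PV IN genes around it was not detectable with these samples.

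**Figure D3:**
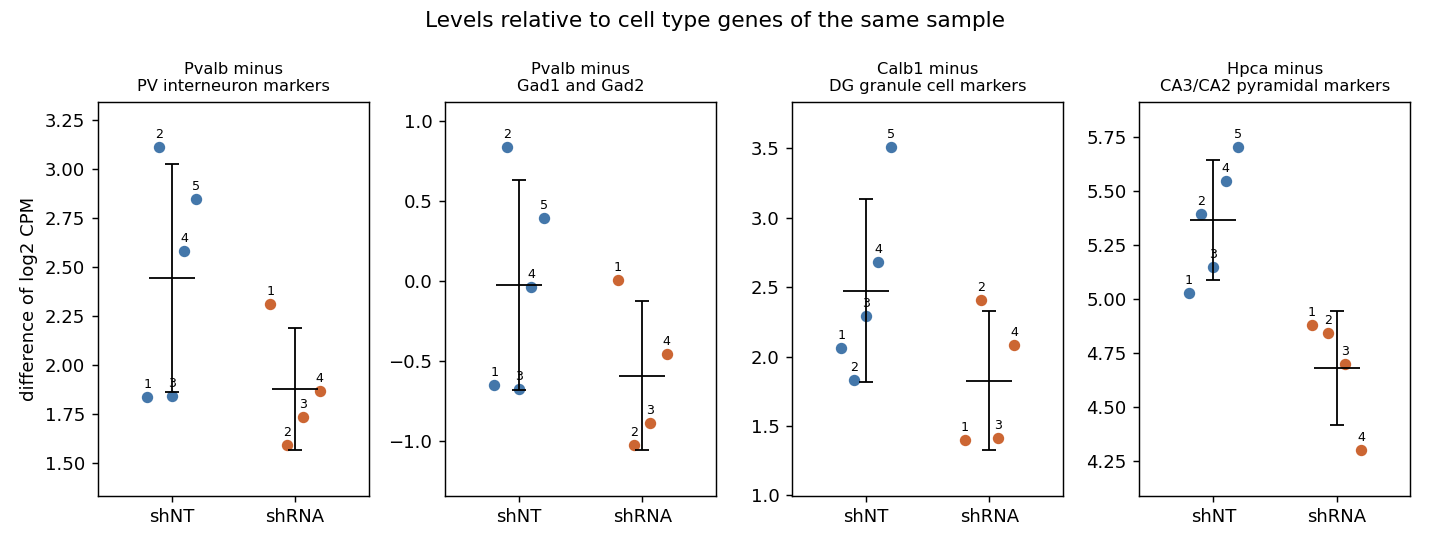
Log2 CPM of a member minus the log2 CPM of cell type genes in the same sample, for the 5 shNT and 4 shRNA samples (numbers are replicates), with mean and SD as bars. For Hpca against pyramidal markers the groups are apart, at 5.03 to 5.70 in shNT and 4.30 to 4.88 in shRNA, and in the other panels they overlap.

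Among the 9495 genes averaging at least 10 CPM, the levels most like that of Pvalb over the 9 samples were those of Tceb2 (r = 0.999, Spearman's rho 0.983), Mrpl13 (r = 0.998), Uqcrb (r = 0.998), Cox5b (r = 0.998) and 2310061C15Rik (r = 0.998). Once each group's mean was subtracted, the 5 most like it were Cisd1, Tceb2, 2310061C15Rik, Uqcrb and Cox5b, with r from 0.997 to 0.998. Of these 6 genes all but Mrpl13 (7.94 kb) have at most 2.04 kb of exon. For Calb1 the most alike were Prpf4 (r = 0.868), Gtf2i (r = 0.829) and Zbtb1 (r = 0.793), for Calb2 Peo1 (r = 0.932), Crym (r = 0.912) and Fxyd6 (r = 0.904), and for Hpca Fth1 (r = 0.91), Cenpf (r = 0.891) and Pcp4 (r = 0.867). No gene came as close to these 3 members as the genes named for Pvalb did to it. All of these correlations rest on the same 9 libraries, whose depth and RNA quality bear on every gene.

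Calretinin, a calcium buffer of other interneurons, was higher in the shRNA samples without passing the test. Its levels were 10.1, 19.6, 21.4, 11.6 and 22.5 CPM in shNT samples 1 to 5 and 22.9, 24.6, 24.6 and 28.7 CPM in shRNA samples 1 to 4. No shNT sample reached the lowest shRNA sample, with shNT 1 and shNT 4 lowest and the gap between shNT 5 and shRNA 1 narrow. Calb2 (chr8:112661402-112692110, minus strand, ENSMUSG00000003657) averaged 17.0 ± 5.76 CPM (n = 5) and 25.2 ± 2.49 CPM (n = 4), a log2 difference of 0.56 (SE 0.24, 95% interval 0.04 to 1.09, edgeR FDR 0.125). It rests on 230 to 716 counts per sample, the fewest of the members beside Hpcal1. The difference was 0.46 within the set of 6 and 0.65 with the length correction, and single omissions gave 0.37 to 0.62, with 0.37 without shNT 4. Markers of other interneurons (10 of 14 tested) had a median of -0.11, against 0.11 for all genes. Of these markers 2 were called, Cnr1 and Adarb2, both higher, where 1.74% of all genes were called higher. Summed levels of the markers ran from 539 to 917 CPM in shNT and from 355 to 719 CPM in shRNA. Their part in the Calb2 values was not tested.

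Calbindin was at 51.9, 43.3, 50.2, 37.3 and 72.6 CPM in shNT samples 1 to 5 and at 49.1, 74.8, 44.6 and 82.5 CPM in shRNA samples 1 to 4. The groups overlapped over most of their range, with shRNA 2 and shRNA 4 highest. Calb1 (chr4:15808411-15835211, plus strand, ENSMUSG00000028222) averaged 51.1 ± 13.4 CPM (n = 5) and 62.7 ± 18.7 CPM (n = 4), a log2 difference of 0.30 (SE 0.23, 95% interval -0.21 to 0.80, edgeR FDR 0.370). The difference was 0.18 within the set of 6, and single omissions gave 0.12 to 0.37, with 0.12 without shRNA 4 and 0.13 without shNT 4. Of 14 markers of DG granule cells, where calbindin is abundant, 12 had a positive log2 difference. Their median was 1.03 and 1, Dock10, passed the test. Among all genes the median was 0.11 and 1.75% passed. The summed level of the 14 markers ran from 176 to 282 CPM in shNT and from 300.4 to 352 CPM in shRNA. Prox1, a gene of this list, averaged 20.6 and 40.2 CPM. Relative to these 14 markers Calb1 differed by -0.65 between the groups (exact permutation p 0.151, adjusted 0.198), from 1.83 to 3.51 log2 units above them in shNT and from 1.40 to 2.41 in shRNA. The part of granule cell RNA in the Calb1 level was not tested.

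As a share of the summed level per kb of the 3 buffers, parvalbumin made up 96.9% to 98.6% in shNT and 89.9% to 96.7% in shRNA, and the ranges did not overlap. Calb2 made up 1.88% to 4.98% in shRNA, above its shNT range, and Calb1 1.45% to 5.14%, which overlaps its own. These shares hold the same differences as the levels and were not tested.

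Hippocalcin, a sensor that takes part in calcium-dependent afterhyperpolarization, had nearly the same level in both groups. Hpca was at 697, 873, 775, 539 and 752 CPM in shNT samples 1 to 5 and at 800.0, 748, 850.2 and 591 CPM in shRNA samples 1 to 4. The groups covered the same range, with shNT 4 and shRNA 4 lowest. The means were 727 ± 123 CPM (n = 5) and 747 ± 112 CPM (n = 4), a log2 difference of 0.04 with an SE of 0.19 and a 95% interval from -0.37 to 0.45 (edgeR FDR 0.895). The interval leaves room for a difference of that size in either direction, and the sign of the estimate turned under several scalings and filters and within the set of 6 (-0.0051). With limma voom the estimate was 0.32 (FDR 0.0696).

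Hpca (chr4:128788814-128799280, minus strand, ENSMUSG00000028785) is abundant in pyramidal neurons, and markers of these cells were given beside it. Of 16 CA3 and CA2 pyramidal markers, 14 had a positive log2 difference and 3 passed the test (Grik4, Cpne4 and Tbr1), with a median of 0.73. Among all genes 1.75% passed, and the median was 0.11. The paper also reports Tbr1 as higher in CA3/CA2 PV INs by qPCR. The summed level of the 16 markers ran from 555 to 954 CPM in shNT and from 1073 to 1369 CPM in shRNA. Slc17a7, a vesicular glutamate transporter on this list, averaged 258 and 433 CPM. Relative to these 16 markers, Hpca stood at 5.03, 5.39, 5.15, 5.55 and 5.70 log2 units in shNT samples 1 to 5 and at 4.88, 4.84, 4.70 and 4.30 in shRNA samples 1 to 4. Every shRNA value was below every shNT value, with shRNA 4 lowest. The mean difference was -0.68, with an exact permutation p of 0.0159, which became 0.0635 after adjustment over the 4 relative levels. Within the set of 6 samples it was -0.38 with an exact permutation p of 0.1, the smallest that 3 against 3 allows, and without shNT 2 and shRNA 4 it was -0.55 with an exact permutation p of 0.0571. The relative level describes the markers as much as Hpca, since Hpca itself did not differ beyond its spread.

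Hpcal4, the most distant hippocalcin relative, was the member with the largest positive difference. Its levels were 214, 187, 179, 105 and 169 CPM in shNT samples 1 to 5 and 221, 259, 293 and 342 CPM in shRNA samples 1 to 4. The groups did not overlap, by a small margin between shNT 1 and shRNA 1, and shNT 4 was lowest. Hpcal4 (chr4:122860470-122871944, plus strand, ENSMUSG00000046093) averaged 171 ± 40.3 CPM (n = 5) and 279 ± 51.3 CPM (n = 4), a log2 difference of 0.71 (SE 0.21, 95% interval 0.25 to 1.16). The edgeR quasi-likelihood p was 0.00589 and its FDR 0.0661, and the exact permutation p was 0.0159. Within the set of 6 samples the difference was 0.38, and with the correction for exon length 0.39. Leaving out single samples kept it between 0.50 and 0.80, and without shNT 1 it passed the test (FDR 0.0477). As a share of the summed level per kb of the 4 hippocalcin family genes, Hpcal4 made up 5.64% to 9.70% in shNT and 9.73% to 18.8% in shRNA.

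Ncald, a sensor that binds membranes when it holds calcium, was at 861, 687, 896, 923 and 961 CPM in shNT samples 1 to 5 and at 679, 838, 765 and 454 CPM in shRNA samples 1 to 4. The groups overlapped through shNT 2, and shRNA 4 was lowest. Ncald (chr15:37295930-37722325, minus strand, ENSMUSG00000051359) averaged 866 ± 106 CPM (n = 5) and 684 ± 166 CPM (n = 4), a log2 difference of -0.34 (SE 0.20, 95% interval -0.78 to 0.11, edgeR FDR 0.247). It was -0.13 within the set of 6, and single omissions gave -0.47 to -0.20, with -0.20 without shRNA 4. Ncald has 6.987 kb of exon, in the class whose median over all genes was 0.37, and with the correction for exon length its difference was -0.75 (edgeR FDR 0.0960). When the percentage of reads off exons entered the fit it was -0.061. The correction for exon length combined with the likelihood ratio test, a choice made after seeing the data, called Ncald alone among the members (FDR 0.0359), where it called 9.34% of all genes.

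Hpcal1, whose protein is close to that of Hpca, was at 17.96, 23.2, 19.3, 20.8 and 25.5 CPM in shNT samples 1 to 5 and at 20.3, 19.8, 21.4 and 15.6 CPM in shRNA samples 1 to 4. The groups overlapped, with shRNA 4 lowest. Hpcal1 (chr12:17697620-17798732, plus strand, ENSMUSG00000071379) averaged 21.4 ± 3.02 CPM (n = 5) and 19.3 ± 2.53 CPM (n = 4), a log2 difference of -0.15 (SE 0.15, 95% interval -0.48 to 0.19, edgeR FDR 0.504). It was -0.013 within the set of 6, and single omissions gave -0.28 to -0.083, with -0.083 without shRNA 4 and -0.28 without shRNA 3. The 4 members of the hippocalcin family thus had values on both sides of 0, from -0.34 to 0.71. Of them 0 of 4 passed the test, where 1.75% of all genes did.

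Calmodulin, the ubiquitous sensor that activates CaM kinases and calcineurin, was lower in shRNA for both genes without passing the test. Calm2 was at 2211, 3089, 2397, 2989.6 and 3739.6 CPM in shNT samples 1 to 5 and at 2186, 2071, 1949 and 1885 CPM in shRNA samples 1 to 4. The groups did not overlap, shNT 1 being just above shRNA 1, and the shRNA samples were closer together than the shNT samples. Calm2 (chr17:87832752-87846275, minus strand, ENSMUSG00000036438) averaged 2885 ± 607 CPM (n = 5) and 2023 ± 134 CPM (n = 4), a log2 difference of -0.51 (SE 0.20, 95% interval -0.95 to -0.08, edgeR FDR 0.103). Within the set of 6 samples it was -0.35, and single omissions gave -0.63 to -0.49. With the correction for exon length it was -0.36 (edgeR FDR 0.232). The FDR of Calm2 was 0.0259 with DESeq2 (-0.56) and 0.00722 with limma voom (-0.52), where the 1.5-fold minimum was not reached. With edgeR's likelihood ratio and exact tests the FDR was 0.0634 and 0.0651.

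Calm3 was at 1314, 1646, 1519, 1462 and 1847 CPM in shNT samples 1 to 5 and at 1399, 1228, 1359 and 805 CPM in shRNA samples 1 to 4. The groups overlapped, since shNT 1 lay below shRNA 1 and shRNA 3, and shRNA 4 was lowest. Calm3 (chr7:17500728-17509463, minus strand, ENSMUSG00000019370) averaged 1558 ± 201 CPM (n = 5) and 1197 ± 272 CPM (n = 4), a log2 difference of -0.38 (SE 0.20, 95% interval -0.83 to 0.07, edgeR FDR 0.206). It was -0.21 within the set of 6, and single omissions gave -0.52 to -0.25, with -0.25 without shRNA 4.

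**Figure D4:**
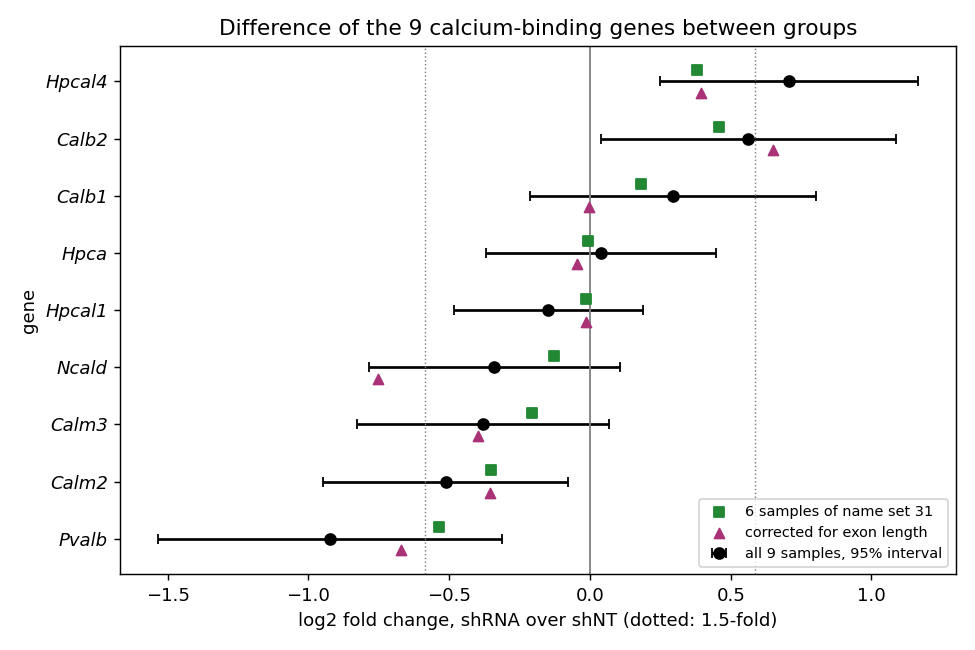
Log2 fold change (shRNA over shNT) of the 9 genes over all 9 samples with its 95% interval (black), over the 6 samples of the larger name set (green squares) and after the correction for exon length (purple triangles), with dotted lines at 1.5-fold. Pvalb at -0.92 and Hpcal4 at 0.71 lie outermost over all samples and move to -0.54 and 0.38 in the set of 6.

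The rest of the EF-hand family was compared in the same way. Of 40 further EF-hand genes listed, 36 were tested and 0 passed, where 1.75% of all genes did, 1.74% higher and 0.0133% lower in shRNA. Unadjusted p-values were under 0.05 for 2 of the 36 on the higher and 9 on the lower side, beside 20.7% and 13.4% of all genes. The difference from all genes was not tested. Negative values were found for 23 of the 36, with a median of -0.21 against 0.11 for all genes. Of the 36, edgeR's likelihood ratio test called 2, its exact test 2, DESeq2 5 and limma voom 2, where these tools called 14.8%, 14.6%, 15.8% and 19.4% of all genes. The groups were apart with shRNA below for 8 of the 36 and with shRNA above for 1, against 6.68% and 8.97% of all genes. Abundant genes of the list were Ncs1 (neuronal calcium sensor 1), at 732 ± 69.0 CPM in shNT and 599 ± 17.4 CPM in shRNA (log2 difference -0.29, edgeR FDR 0.181), and Vsnl1 (visinin-like 1), at 688 ± 118 and 466 ± 124 CPM (-0.56, edgeR FDR 0.106). Ppp3r1, the regulatory subunit of calcineurin, was at 465 ± 44.4 and 495 ± 41.3 CPM (0.089, edgeR FDR 0.680). Kcnip3, a potassium channel partner that also binds DNA, had the lowest FDR of the list and was named after its values were seen, at 14.2 ± 3.81 and 26.7 ± 10.001 CPM (0.91, edgeR FDR 0.0651).

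Proteins that bind calmodulin, or are relatives of such proteins, were listed as its partners. Of 35 kinases, phosphatases, phosphodiesterases and binding proteins listed, 34 were tested and 1 passed, where 1.75% of all genes did, namely Pde1a, a calmodulin-dependent phosphodiesterase. Its level rose from 36.7 ± 9.02 CPM (n = 5) to 80.7 ± 10.9 CPM (n = 4), a log2 difference of 1.13 (SE 0.19, edgeR FDR 0.0403), with every shRNA sample above every shNT sample. No partner was called when shNT 3, shNT 4, shNT 5, shRNA 1 or shRNA 3 was left out, although 8 to 16 of them had an unadjusted p under 0.05 in those fits. In each of those fits 0 of all genes were called, while 3473 to 4625 genes had an unadjusted p under 0.05. The count of partners was also 0 with the correction for exon length, with reads off exons as a covariate, with library size only, upper quartile scaling or filterByExpr, and within the set of 6, where 7 to 22 partners had an unadjusted p under 0.05. In these settings too 0 of all genes were called, while 1493 to 5360 had an unadjusted p under 0.05. Of the 34 values 24 were positive and 10 negative, with a median of 0.37 against 0.11 for all genes. Unadjusted p-values were under 0.05 for 14 of the 34 on the higher and 3 on the lower side, beside 20.7% and 13.4% of all genes, and the difference from all genes was not tested. The most abundant were Pcp4l1, a relative of the calmodulin-binding peptide Pcp4, at 722 ± 104 and 426 ± 98.0 CPM (-0.76, edgeR FDR 0.0621), Ppp3ca, a catalytic subunit of calcineurin, at 633 ± 75.8 and 875 ± 93.7 CPM (0.47, edgeR FDR 0.0809), and the CaM kinase subunits Camk2a, at 543 ± 232 and 917 ± 124 CPM (0.76, edgeR FDR 0.0924), and Camk2b, at 545 ± 142 and 815 ± 76.0 CPM (0.58, edgeR FDR 0.0854). The other catalytic subunits listed, Ppp3cb and Ppp3cc, were at -0.11 and -0.26 (edgeR FDR 0.551 and 0.146). The partners have a median exon length of 5360 bases and the other EF-hand genes of 2397 bases. With the correction for exon length the median of the partners was 0.017 and that of the EF-hand genes -0.32, beside -0.083 for all genes. Camk2a and Camk2b are also abundant in pyramidal neurons, whose markers are given above, and the part of those cells was not tested.

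Markers of glia and vessels were also measured. All 16 astrocyte markers had positive values (median 1.35, 0 called, 15 with an unadjusted p under 0.05). Among all genes 1.75% were called, 1.74% higher and 0.0133% lower, and 20.7% were higher with an unadjusted p under 0.05. Summed levels of the astrocyte markers were 1325 to 1900 CPM in shNT and 1794 to 7140 CPM in shRNA, the highest in shRNA 4. Gfap was at 101 to 238 CPM in shNT and at 235, 181, 219 and 1058.5 CPM in shRNA samples 1 to 4, and Aqp4 at 25.2 to 46.3 CPM and at 37.5, 36.2, 47.3 and 294 CPM. Both genes stood within or close to the shNT range in the 3 shRNA samples other than shRNA 4. All 12 oligodendrocyte markers were positive (median 0.74, 0 called, 9 with an unadjusted p under 0.05). Of 11 microglia markers 6 were positive and 5 negative, with the median of 0.11 that all genes had. The 10 endothelial markers had a median of 0.46, with 0 called in either list. Unadjusted p-values were under 0.05 for 3 microglia markers, all higher, and for 0 endothelial markers. The summed endothelial level was 104 to 322 CPM in shNT and 141, 65.7, 125 and 849 CPM in shRNA samples 1 to 4. Only shRNA 4 lay above the shNT range. The 7 nuclear-retained noncoding RNAs tested had a median of 0.98, with summed levels of 1673 to 15051 CPM in shNT and 3645 to 19020 CPM in shRNA. CPM are relative to the other RNA of a library, scaled here with TMM. The part of RNA of other cells in the values of Pvalb, Calm2 and Calm3 was not tested.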

How the data were processed

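RNA pulled down with HA-tagged ribosomes was sequenced in 9 samples, 5 shNT and 4 shRNA. Reads of 50 bases were aligned to mm9 with STAR and assigned to genes with HTSeq 0.6.0 without strand, and the authors deposited raw gene counts per sample with no normalization. The annotation release is not given in the sources used here, and GENCODE M1 models of mm9 named 37205 of 37620 identifiers. The 5 rows that name no gene stayed out of the library sizes. They hold 9.76% to 27.2% of uniquely placed reads as reads outside exons and 1.36% to 1.78% as ambiguous reads.

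Counts were analysed in R 4.3.3 with edgeR 4.0.16 (TMM, quasi-likelihood test, condition as the only term) over the 15069 genes that reached 1 CPM in any sample. Genes were called at an FDR under 0.05 (Benjamini-Hochberg over all genes tested) and at least 1.5-fold. Log2 levels used a prior count of 2, and the biological coefficient of variation was 0.303. With 18281719 to 34578837 gene counts per sample, counting error was small beside the spread between samples. Single values were compared by exact two-sided permutation of the samples, and neighbours in the order of levels by exact sign flips. Repeated windows were counted on both strands of the genome in Python 3.11.15 with Biopython 1.88. No pair of samples was a repeat of a single library, since their lowest chi-square per degree of freedom was 20.1. The scripts were tested on simulated data.

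The members, gene lists and tests were chosen with earlier results of these data known. The genes named were the 9 members, called genes of the other lists and otherwise up to 4 per list with the highest mean CPM, defining cell markers, and the genes most like Pvalb, Calb1, Calb2 and Hpca. Alternatives used DESeq2 1.42.0, limma 3.58.1, other edgeR tests, normalizations and filters, blocks, covariates and subsets of samples. The list genes Chp1, Eef2k, Lamp5, Ndnf, Glis3 and Kcnq1ot1 matched no single identifier. A gene of the EF-hand list that this rule names is not reported here. The paper's lists of called genes were not used here.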

Additional observations from a re-analysis of the deposited data

Results flagged for a closer look

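Of 36 groups of values tested for a sample far from the others, 3 were flagged, where chance alone gives about 1.8. In shNT 2, reads outside exons made up 18.6% of uniquely placed reads, far above the other shNT samples at 9.76% to 11.3%. The mean log2 level of the 20 PV IN markers in shNT 2 was -0.47 relative to the shNT mean, far below the other shNT samples at 0.04 to 0.22, while its Pvalb level (1106 CPM) was the second highest. In shRNA 4, the astrocyte markers stood at a mean log2 level of 2.50, far above the other shRNA samples at 0.35 to 0.69. Its levels of Pvalb, Calm2, Calm3, Ncald, Hpca and Hpcal1 were the lowest of the shRNA group. Its levels of Calb1, Calb2 and Hpcal4 were the highest of that group.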

How the results depend on the processing

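Pvalb stayed negative under all 17 alternatives and all 9 omissions of a sample. It passed the test with edgeR's likelihood ratio test (-0.92, FDR 0.0175), its exact test (-0.92, FDR 0.0184), DESeq2 (-0.98) and limma voom (-0.85), was at -0.70 without shNT 2 and shRNA 4, and single omissions gave -1.15 to -0.77. The members called were 2, 2, 2 and 3 by these tools, 1 (Ncald) under the length correction with the likelihood ratio test, and 0 to 2 under single omissions, the 2 without shNT 1. Over all genes, 264 were called, and these tools called 2230, 2193, 2365 and 2919. The count was 515 without a filter, 680 without shNT 2 and shRNA 4 and 1408 with the length correction and the likelihood ratio test. It was 0 with library size only, upper quartile scaling, filterByExpr, the set of 6 alone, the covariate and the length correction, where 5258, 5360, 5139, 1493, 4479 and 4523 genes had an unadjusted p under 0.05, and single omissions gave 0 to 1417, the most without shNT 1. Of the EF-hand genes these 4 tools called 2, 2, 5 and 2, the length correction with the likelihood ratio test 5, and single omissions 0 to 1, the 1 without shNT 1. Of the calmodulin partners (1 called) they called 9, 9, 8 and 15, the combination 8, no filter 3, the name set as a block 2, the omission of shNT 2 and shRNA 4 2, single omissions 0 to 11, and the 6 settings with no calls over all genes 0.

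The labels do not say whether the replicate numbers pair the samples. In deviations from the group means, shRNA samples 1 to 4 correlated with the shNT sample of their own number at -0.27, -0.64, 0.49 and -0.18. Of these, 1 of 4 correlated best with its own number. These correlations cannot settle whether samples were paired, because depth and RNA quality also enter them. With a replicate block 29 genes were called, 0 members and 0 partners, and Pvalb was at -0.80 (FDR 0.398). With that block 3 members had an unadjusted p under 0.05, as did 1882 of the 15069 genes.

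Hpca turned negative with DESeq2 and DESeq2 size factors (-0.0078 and -0.0078), filterByExpr (-0.027), the name set as a block (-0.016), the set of 6 (-0.0051) and the length correction with either test (-0.047 and -0.047), and single omissions gave -0.12 to 0.11, while without shNT 2 and shRNA 4 it was 0.22. The highest value of Hpca was 0.32, with limma voom (FDR 0.0696). Calb1 turned to -0.0025 with the length correction under either test. The level of Pvalb relative to Gad1 and Gad2 turned to 0.066 with the length correction (single omissions -0.77 to -0.35). The level of Hpca relative to pyramidal markers lost its unadjusted p under 0.05 in the set of 6 (-0.38) and without shNT 2 and shRNA 4 (-0.55), and single omissions gave -0.77 to -0.56. Single omissions gave -0.72 to -0.40 for Pvalb relative to PV IN markers and -0.84 to -0.39 for Calb1 relative to granule cell markers. The order of levels kept 7 of 8 neighbours with the longest transcript as length and 7 to 8 under single omissions. Causes were not tested. The median of all genes was 0.11 on the log2 scale and -0.083 with the length correction. Every member had at least 230 counts in every sample. The length correction with the likelihood ratio test, the omission of shNT 2 with shRNA 4 and the uniquely placed exon length were chosen after seeing the data.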
